A study of Mus musculus with 32 samples.

Results

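Clec4f, Vsig4, Marco, Cd5l and Timd4, which mark the resident macrophages of the liver (Kupffer cells), and C1qa, C1qb and C1qc, which encode the chains of complement C1q, were examined in wild-type (WT) mice and their *Gpr146* knockout (KO) littermates. These 8 genes, 5 of Kupffer cells and 3 of C1q, were taken by name from 24646 genes, with earlier results of these data known. The study asked how loss of the receptor GPR146 alters liver and fat of mice on a high-fat diet. All mice were males on a C57BL/6J background, 20 weeks old, fed the high-fat diet for 3 months and fasted overnight. KO mice, made with CRISPR/Cas9, lack *Gpr146* in the whole body and were set beside WT mice under the same diet and fasting, so no group on chow entered the comparison. Liver, epididymal white fat (eWAT), inguinal white fat (iWAT) and brown fat (BAT) of 4 mice per genotype were each hybridized to an Affymetrix Mouse Gene 2.1 ST array, giving 32 arrays. The same mouse numbers recur in the 4 tissues. Values are log2 expression, so a difference of 1 is a 2-fold change, and every difference below is KO minus WT.

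Kupffer cells line the sinusoids of the liver, where they take up particles, dying cells and old red cells from portal blood. VSIG4 binds fragments of complement C3 on opsonized particles, MARCO is a scavenger receptor for bacteria and debris, TIMD4 binds phosphatidylserine on dying cells, CLEC4F is a lectin that in mice is carried by Kupffer cells, and CD5L is a protein that macrophages secrete. C1q starts the classical complement pathway when it binds antibody or debris, and unlike most complement proteins it is made mainly by macrophages rather than hepatocytes. Its A, B and C chains assemble together into the finished molecule. PU.1 is a transcription factor of macrophages in general.

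The genes of the C1q chains lie side by side on chromosome 4. In the RefSeq annotation of GRCm38.p6, C1qb spans chr4:136880126-136886200, C1qc chr4:136889801-136892936 and C1qa chr4:136895916-136898844, all within 18719 bases that hold 0 other annotated genes. The Kupffer cell genes are scattered over the genome, with Clec4f at chr6:83644542-83656116, Vsig4 at chrX:96247201-96293438, Marco at chr1:120474538-120505024, Cd5l at chr3:87357881-87371074 and Timd4 at chr11:46810786-46844333. Promoters are shown for Vsig4 and C1qc, the genes whose liver values did not overlap between genotypes, and for C1qb, the C1q chain with the largest liver difference. Each run is the 250 bases before the transcript start that RefSeq gives, 5′ to 3′ on the strand of the gene, which is the minus strand in all 3. For C1qc that start lies inside the gene span given above, so the last bases of its run overlap the span. Capitals mark the core of the PU.1 motif, GAGGAA where it is read on the gene's strand, or its reverse complement TTCCTC.
Vsig4, chrX:96293439-96293688: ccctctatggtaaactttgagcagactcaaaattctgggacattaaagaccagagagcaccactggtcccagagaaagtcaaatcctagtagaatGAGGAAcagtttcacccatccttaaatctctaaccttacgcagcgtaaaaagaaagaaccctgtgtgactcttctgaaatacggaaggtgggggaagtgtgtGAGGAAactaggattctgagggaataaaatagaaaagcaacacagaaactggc
C1qb, chr4:136886201-136886450: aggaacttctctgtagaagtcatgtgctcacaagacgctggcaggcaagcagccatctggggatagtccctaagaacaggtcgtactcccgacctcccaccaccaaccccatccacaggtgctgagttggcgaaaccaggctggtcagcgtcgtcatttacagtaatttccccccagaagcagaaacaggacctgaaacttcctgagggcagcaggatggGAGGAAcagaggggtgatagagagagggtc
C1qc, chr4:136892915-136893164: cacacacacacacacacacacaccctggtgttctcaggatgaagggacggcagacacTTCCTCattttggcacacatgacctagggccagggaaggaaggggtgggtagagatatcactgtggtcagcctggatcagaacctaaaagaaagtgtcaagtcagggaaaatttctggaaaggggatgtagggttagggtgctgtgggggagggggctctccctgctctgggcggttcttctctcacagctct

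Vsig4 held the PU.1 core at 155 and 53 bases before its start. C1qb held it 30 bases before the start, and C1qc held it on the opposite strand at 193 bases. With both strands searched, the PU.1 core occurred in 5 of the 7 promoters listed for these genes (Vsig4, Marco, Cd5l, C1qb and C1qc) and in 23.3% of 32851 mouse promoters of the same length. No match was found in the windows of Clec4f and Timd4. Such short letters match often, and a match describes the sequence without showing that a factor binds there. The C1qa promoter is not analysed here.

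Before the results, the arrays were checked. *Gpr146* itself read 6.17 to 6.32 in WT livers and 4.26 to 4.63 in KO livers, and KO values lay below all WT values in each of the 4 tissues. The titles of the 4 KO liver samples name both genotypes, while their other labels say KO, and the *Gpr146* values go with KO. KO mouse 2 had the lowest *Gpr146* of the KO livers, 4.26, yet for all 8 genes described here it had the highest liver value of the KO mice, so liver results are also given without it. Since those values singled it out, leaving it out makes each liver difference of the 8 genes larger by construction. In iWAT, 3 arrays (WT mice 1 and 2 and KO mouse 2) carried high B cell transcripts, a mean of 8.01 to 8.38 over Cd79a, Cd79b and Ms4a1, and KO mouse 4 was intermediate at 6.19, against 3.38 to 3.75 in the other arrays.

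In liver, all 8 genes were lower on average in KO mice, by 0.61 to 1.74 on the log2 scale, but with all mice included only C1qc passed the threshold of an adjusted p under 0.05 over all genes. That is 1 of 8, where 0.661% of all genes were called in either direction and 0.499% as lower. At an unadjusted p under 0.05 all 8 were lower, against 7.48% of all genes. Because whole liver was measured, fewer Kupffer cells and less RNA per cell cannot be told apart.

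**Figure D1:**
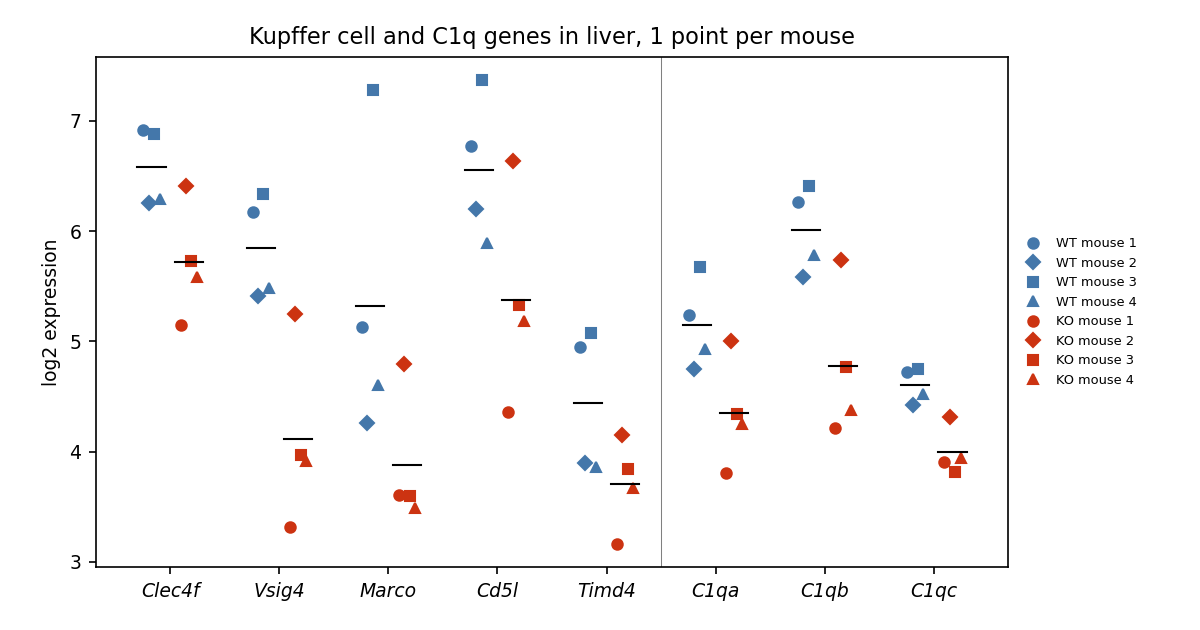
Liver log2 expression of the 5 Kupffer cell genes (left of the line) and the 3 C1q genes (right), with 1 point per mouse, blue for WT and red for KO, and bars at group means. KO mouse 2 (red diamonds) is the highest KO mouse for each gene, and the groups separate fully only for Vsig4 and C1qc.

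Vsig4 showed the largest liver difference among these genes. It read 6.17, 5.42, 6.34 and 5.48 in WT mice 1 to 4 and 3.31, 5.25, 3.97 and 3.92 in KO mice 1 to 4. All KO mice lay below all WT mice, KO mouse 2 by a narrow margin. The difference was −1.74 (SE 0.352, n = 4 per genotype, 3.34-fold lower) with an adjusted p of 0.0546 in limma, just short of the threshold, and an exact two-sided permutation p of 0.0286, the smallest that 4 mice against 4 allow. Without KO mouse 2 it fell by 2.12 with an adjusted p of 0.00273. Groups that do not overlap give a permutation p of 0.0286 by construction, as they did for Vsig4 and C1qc. For the other genes in liver the exact permutation p was 0.0571 (C1qb), 0.0857 (Clec4f, Marco, Cd5l and C1qa) and 0.143 (Timd4).

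Clec4f, the most Kupffer-restricted of these genes in mice, read 6.92, 6.25, 6.88 and 6.30 in WT and 5.14, 6.41, 5.73 and 5.58 in KO livers. KO mouse 2 sat among the WT mice and the other KO mice sat below them all. The difference of −0.87 (SE 0.243) did not pass (adjusted p = 0.146), and without KO mouse 2 it was −1.10 and passed (adjusted p = 0.0272).

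Cd5l read 6.77, 6.20, 7.37 and 5.89 in WT and 4.36, 6.63, 5.33 and 5.18 in KO livers. Again only KO mouse 2 reached the WT range. The difference was −1.18 (SE 0.428, adjusted p = 0.262), and −1.60 without KO mouse 2, still short of the threshold (adjusted p = 0.0514).

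Marco, the scavenger receptor, was the most uneven. WT livers read 5.13, 4.26, 7.28 and 4.60 and KO livers 3.61, 4.80, 3.60 and 3.49. WT mouse 3 stood far above every other liver. The difference was −1.44 (SE 0.554, adjusted p = 0.286), and −0.79 without WT mouse 3. Leaving out KO mouse 2 gave −1.75 (adjusted p = 0.199).

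Timd4, the phosphatidylserine receptor, had the smallest difference among the Kupffer cell genes. WT mice 1 and 3 read 4.95 and 5.07 and WT mice 2 and 4 read 3.89 and 3.86, while KO livers read 3.16, 4.15, 3.84 and 3.67. KO mouse 3 was therefore only just below WT mouse 4, and the difference of −0.74 (SE 0.292) passed neither with KO mouse 2 (adjusted p = 0.302) nor without it (adjusted p = 0.227).

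C1qc, which encodes the C chain, was the gene called in liver with all mice. It read 4.73, 4.42, 4.75 and 4.52 in WT and 3.91, 4.32, 3.81 and 3.94 in KO livers, with no overlap. It fell by 0.61 (SE 0.118, 1.52-fold lower, limma adjusted p = 0.0484, exact permutation p = 0.0286). This was the smallest difference among the 8 genes but also the one with the tightest groups (SD 0.159 in WT and 0.221 in KO). The call was narrow, since it was lost under quantile normalization (adjusted p = 0.0646), in the methods' t-test with Benjamini-Hochberg adjustment (adjusted p = 0.243) and whenever a single array other than that of KO mouse 2 was left out (adjusted p = 0.0687 to 0.146). Without KO mouse 2 the gene fell by 0.72 (adjusted p = 0.00787).

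C1qb, encoding the B chain, read 6.26, 5.58, 6.41 and 5.78 in WT and 4.21, 5.74, 4.77 and 4.38 in KO livers. KO mouse 2 was above WT mouse 2, and the other KO mice were below all WT mice. The difference of −1.23 (SE 0.297, 2.35-fold lower) had an adjusted p of 0.0996, and without KO mouse 2 it fell by 1.55 (adjusted p = 0.00540).

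C1qa, encoding the A chain, read 5.24, 4.75, 5.67 and 4.93 in WT and 3.81, 5.01, 4.34 and 4.25 in KO livers. Here KO mouse 2 exceeded WT mice 2 and 4. The difference of −0.80 (SE 0.244) did not pass (adjusted p = 0.180), and without KO mouse 2 it was −1.02 and passed narrowly (adjusted p = 0.0476).

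Without KO mouse 2, 5 of the 8 genes passed in liver (Clec4f, Vsig4, C1qa, C1qb and C1qc), all lower, where 1.22% of all genes were called and 0.982% as lower. Nothing is read from the count beside these shares, because the 8 genes chose the mouse that was left out and the other genes did not. Leaving out any other array left 0 of 8. KO mice 1, 3 and 4 each lay below every WT mouse for 8 of 8 genes, as they did for 6.79% of all genes, a share open to the same choice of mouse. With KO mouse 2 included, every KO mouse lay below every WT mouse for 2 of 8 genes and for 4.16% of all genes. The mice also kept a common order within each genotype. WT mouse 3 was the highest WT liver for 7 of 8 genes and WT mouse 2 the lowest for 6 of 8, and KO mouse 1 was the lowest KO liver for 6 of 8. Relative to the WT mean, the mean of the 5 Kupffer cell genes was 0.24, −0.55, 0.84 and −0.52 in WT mice 1 to 4 and −1.83, −0.30, −1.26 and −1.38 in KO mice 1 to 4. The mean of the 3 C1q genes ran over a smaller range, from 0.36 in WT mouse 3 to −1.28 in KO mouse 1, with KO mouse 2 at −0.23.

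The 5 genes with the liver profile most like each of the 2 sets over the 8 mice were listed without a test. Likeness was the root mean square of the log2 difference between profiles, each centred on its own mean, over 12315 genes brighter than the median gene. Nearest to the mean of the Kupffer cell genes were Emr4 (0.19, a macrophage adhesion receptor), Lyz2 (0.23, lysozyme), Hmox1 (0.30, heme oxygenase), Ly86 (0.31) and Folr2 (0.32, a folate receptor of resident macrophages). The 5 Kupffer cell genes themselves lay 0.21 to 0.51 from their own mean, and the median gene 0.83. Nearest to the C1q mean were Ptprc (0.13, CD45, of leukocytes), Tyrobp (0.13, a signalling adaptor), Sdc3 (0.14, a syndecan), Csf1r (0.15, the CSF1 receptor of macrophages) and Cd53 (0.15), with the C1q genes at 0.10 to 0.24 and the median gene at 0.56. The measure follows the spread of a profile as well as its shape, and over 8 mice it mixes genotype with differences among mice.

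Lists of other genes were tested in the same livers. Of 16 other Kupffer cell genes, 3 fell and 0 rose, with a median difference of −0.55 against 0.01 over all genes. Fcna, a ficolin lectin, fell by 0.97 (adjusted p = 0.0147), Il18bp, which binds interleukin 18, by 0.56 (adjusted p = 0.0387), and Cdh5, also a cadherin of endothelial cells, by 1.08 (adjusted p = 0.0458). Cxcl13, a chemokine, had a difference of −1.09 that did not pass (adjusted p = 0.414). The mean level of this list was 4.34 to 4.84 in WT livers and 3.86 to 4.32 in KO livers, with KO mouse 2 at the upper end. Without that mouse 6 of 16 passed, where 1.22% of all genes were called and 0.982% as lower. Nothing is read from this count, because leaving out the highest KO liver widens the mean difference by construction.

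Of 9 transcription regulators of Kupffer cells, 0 passed (median −0.19). Id3 was at −0.88 (adjusted p = 0.0963) and Spic at −0.30 (adjusted p = 0.571). Of 6 niche signals made for Kupffer cells by their neighbours, 1 passed. Gdf2, which encodes BMP9, fell by 0.70 (adjusted p = 0.0155), and Tgfb1 was at −0.98 (adjusted p = 0.0533).

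Of 15 genes of macrophages in general, 0 passed with all mice (median −0.66) and 8 passed without KO mouse 2. Ctss, a cathepsin, was at −1.52 (adjusted p = 0.0806) and Lyz2 at −1.28 (adjusted p = 0.126). The mean level of the 15 genes was 4.51 to 4.97 in WT livers and 3.81 to 4.68 in KO livers, and the highest KO value was that of mouse 2. Leaving that mouse out therefore widens the mean difference by construction, and nothing is read from the 8 genes called then. In that comparison 1.22% of all genes were called and 0.982% as lower. Of 12 genes of recruited monocytes and lipid-associated macrophages, 0 passed with or without KO mouse 2, and the median was 0.02. Spp1, osteopontin, was at 0.60 (adjusted p = 0.285) and Clec7a, a lectin for fungal glucans, at −0.48 (adjusted p = 0.433).

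The rest of the complement cascade is mostly made by hepatocytes. Of 28 such genes, 1 fell, with a median of −0.01. That gene was Cfd, encoding factor D, which is known from fat cells and fell by 1.12 (adjusted p = 0.0242). Cd55, a membrane regulator that speeds the decay of complement convertases, was at −0.87 (adjusted p = 0.122). C1ra and C1s, the proteases that act with C1q, were at 0.25 (adjusted p = 0.299) and 0.04 (adjusted p = 0.739). Of 8 receptors of C1q and C3 fragments, 0 passed (median −0.19), with C3ar1, the C3a receptor, at −0.50 (adjusted p = 0.0996) and Cd93 at −0.44 (adjusted p = 0.201).

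Markers of other liver cells moved in the same livers. Of 10 genes of sinusoidal endothelial cells, 6 fell (median −0.83), led by Clec4g, a lectin, at −1.32 (adjusted p = 0.00167) and Fcgr2b, an Fc receptor, at −1.32 (adjusted p = 0.00565). Dnase1l3, a DNase, fell by 1.25 (adjusted p = 0.00173), Bmp2 by 1.09 (adjusted p = 0.0155), Oit3 by 0.97 (adjusted p = 0.0144) and Gpr182 by 0.69 (adjusted p = 0.0204). The mean of this list was 5.22 to 5.38 in WT livers and 4.17 to 4.91 in KO livers. Of 10 genes of hepatic stellate cells, 5 fell (median −0.81). Dcn, decorin, fell by 2.06 (adjusted p = 0.0124), Hgf by 1.44 (adjusted p = 0.0288), Ecm1 by 1.39 (adjusted p = 0.0301), Reln, reelin, by 1.25 (adjusted p = 0.0184) and Lrat, which esterifies retinol for storage, by 0.77 (adjusted p = 0.0346). KO mouse 2 was the KO liver with the highest mean of both lists. Without it 9 of the endothelial and 7 of the stellate genes passed, where 1.22% of all genes were called and 0.982% as lower. Nothing is read from these counts, because leaving out the highest KO liver widens both mean differences by construction. The part of endothelial and stellate cells in the values of the Kupffer cell and C1q genes was not tested.

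The hepatocyte, neutrophil and lymphocyte lists had medians within 0.05 of 0. Of 10 hepatocyte genes 0 passed (median 0.05, mean level 9.50 to 9.75 in WT and 9.70 to 9.87 in KO), with Ass1 at 0.89 (adjusted p = 0.268) and Cps1 at 0.50 (adjusted p = 0.0658), both enzymes of the urea cycle. Of 7 neutrophil genes and 8 B and T cell genes 0 passed (a median of −0.04 in each), the largest differences being those of S100a8 (−0.22) and Ly6g (−0.15), and of Cd79a (0.10) and Cd3g (−0.09). Of 6 adipocyte genes 0 passed, but 5 had a lower mean in KO mice and the median was −0.13, with Fabp4 at −1.48 (adjusted p = 0.267) and Cidea at −1.27 (adjusted p = 0.139).

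**Figure D2:**
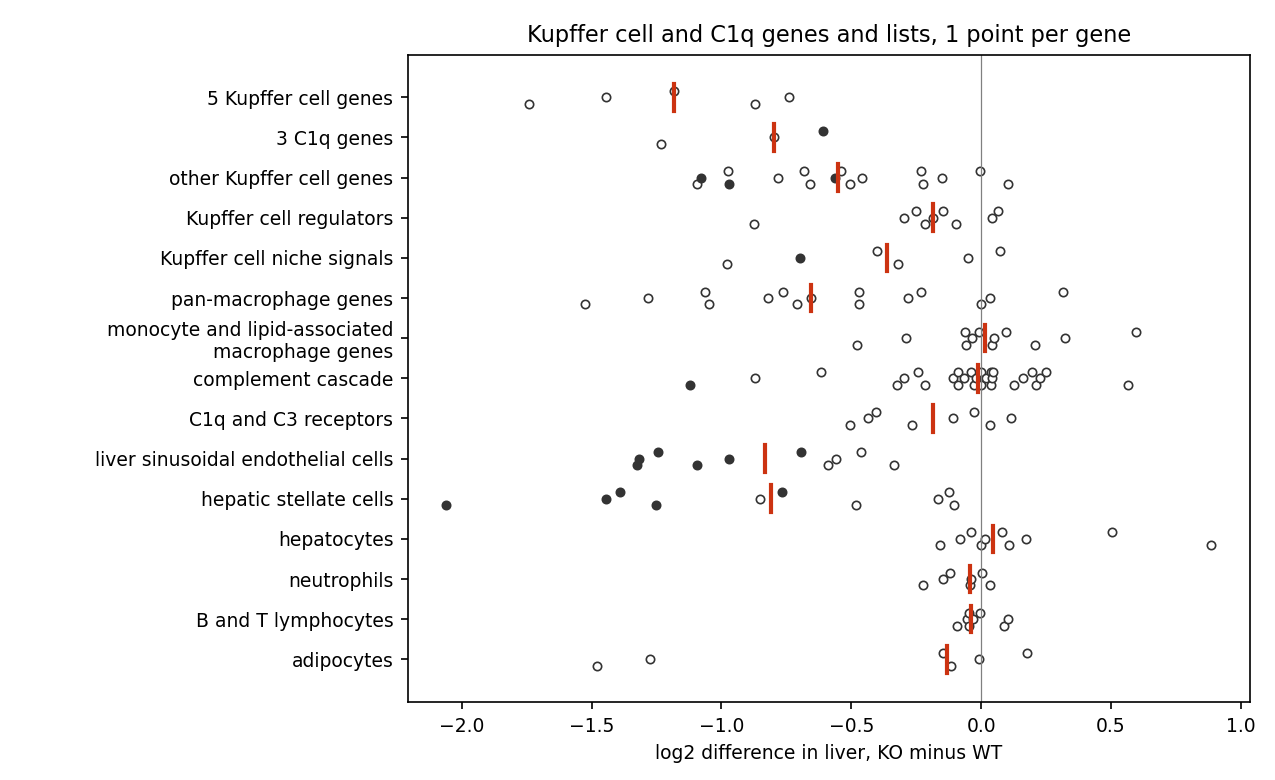
Liver differences (log2, KO minus WT, all mice) of the 8 genes and of each list, with 1 point per gene, filled where the adjusted p was under 0.05, and red bars at list medians. Kupffer cell, C1q, pan-macrophage, endothelial and stellate genes lie mostly left of 0, while the hepatocyte, lymphocyte and neutrophil lists lie around 0.

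The 4 tissues differed in the levels at which these genes read. The tissues were deposited as separate tables, with array medians of 3.00 to 3.06 in liver, 3.13 to 3.18 in eWAT, 3.65 to 3.73 in iWAT and 2.82 to 2.86 in BAT, so levels across tissues are given as a description without a test. Clec4f was highest in WT liver (6.59 ± 0.360, SD, n = 4), followed by iWAT (3.41 ± 0.154), eWAT (2.83 ± 0.263) and BAT (2.52 ± 0.174), and the ranges of BAT and eWAT overlapped. Cd5l followed the same order, from 6.56 ± 0.654 in liver to 2.80 ± 0.459 in iWAT, 2.36 ± 0.370 in eWAT and 1.63 ± 0.220 in BAT, with overlap between iWAT and eWAT. Vsig4 ran from 5.85 ± 0.470 in liver to 4.03 ± 0.451 in eWAT, 2.02 ± 0.239 in iWAT and 1.54 ± 0.0751 in BAT. Over all mice, the mean of Clec4f exceeded that of 46.6% of genes in eWAT, 44.6% in iWAT and 41.1% in BAT. For Cd5l the shares were 24.8%, 35.3% and 14.2% in the same order. No detection call is given, so whether such dim values are above background is unknown and nothing is read from their order among the fat depots.

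Marco (5.32 ± 1.36 in liver and 5.22 ± 1.80 in iWAT) and Timd4 (4.44 ± 0.655 in liver and 5.47 ± 1.74 in iWAT) were as high in iWAT as in liver, but with a wide spread there. The C1q genes were highest in eWAT, next in iWAT, and overlapped between liver and BAT. C1qb read 10.3 ± 0.218 in eWAT, 8.43 ± 0.717 in iWAT, 6.01 ± 0.391 in liver and 5.93 ± 0.380 in BAT. For C1qa the means were 8.28 ± 0.211, 7.11 ± 0.797, 5.15 ± 0.403 and 4.78 ± 0.345 in the same order, and for C1qc 7.27 ± 0.270, 6.02 ± 0.653, 4.60 ± 0.159 and 3.94 ± 0.345.

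In eWAT, Vsig4 and all C1q chains fell in KO mice, while Clec4f, Marco, Cd5l and Timd4 did not pass. This was 4 of 8, in a tissue where 15.2% of all genes were called and 10.7% as lower. The same 4 genes had every KO mouse below every WT mouse, as 13% of all genes did, and 5 of 8 were lower at an unadjusted p under 0.05, as 17.4% of all genes were. Without KO mouse 2 the count was again 4 of 8, where 22% of all genes were called and 14.2% as lower. C1qb read 10.16, 10.15, 10.61 and 10.22 in WT and 6.96, 9.86, 8.13 and 7.30 in KO mice. The WT mice were tightly grouped, KO mouse 2 lay just below them, and the other KO mice were far lower. It fell by 2.22 (SE 0.527, 4.67-fold lower, adjusted p = 0.0226), and by 2.82 without KO mouse 2 (adjusted p = 6.77e-05). Since KO mouse 2 was the highest KO mouse here too, leaving it out makes the difference larger by construction.

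C1qa in eWAT read 8.12, 8.26, 8.59 and 8.17 in WT and 5.98, 8.10, 6.49 and 6.06 in KO mice, and fell by 1.63 (SE 0.406, adjusted p = 0.0270). C1qc read 7.06, 7.12, 7.66 and 7.25 in WT and 4.72, 6.91, 5.35 and 4.94 in KO mice, and fell by 1.79 (SE 0.414, adjusted p = 0.0206). In both genes KO mouse 2 again lay just below the lowest WT mouse, and the groups did not overlap. Without that mouse they fell by 2.11 and 2.27, again larger by construction. Leaving out WT mouse 2, 3 or 4 or KO mouse 1 or 4 ended the calls of all 3 C1q genes (highest adjusted p 0.0737 for C1qa, 0.0631 for C1qb and 0.0589 for C1qc), and so did the methods' t-test with Benjamini-Hochberg adjustment.

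Vsig4 in eWAT read 4.23, 3.88, 4.54 and 3.49 in WT and 2.32, 3.04, 1.95 and 2.13 in KO mice. KO mouse 2 was again the highest KO mouse, here clear of the WT range. The gene fell by 1.67 (SE 0.268, 3.19-fold lower, adjusted p = 0.00929) and passed whichever array was left out (adjusted p 0.000345 to 0.0367). It did not pass in the methods' t-test with Benjamini-Hochberg adjustment. Clec4f (0.25, adjusted p = 0.367), Marco (−0.03, adjusted p = 0.863), Cd5l (−0.41, adjusted p = 0.129) and Timd4 (−0.21, adjusted p = 0.528) read between 1.86 and 4.16 in every eWAT array. The KO values of Vsig4 lay in the same dim range. No detection call is given, so whether such dim values are above background is unknown. In the same tissue, 11 of 15 general macrophage genes and 7 of 12 genes of monocytes and lipid-associated macrophages fell (medians −1.58 and −1.58).

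**Figure D3:**
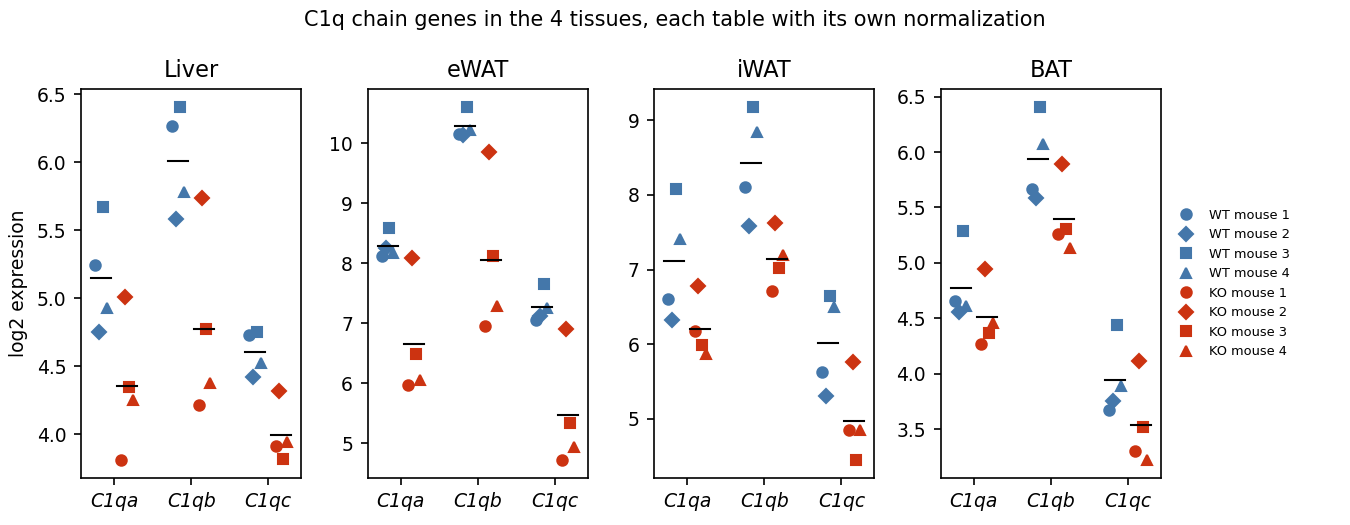
Log2 expression of the C1q chain genes in each tissue, with 1 point per mouse, blue for WT and red for KO, bars at group means, and a separate scale per tissue. KO mouse 2 (red diamonds) is the highest KO mouse in liver, eWAT, iWAT and BAT, and the genotypes separate for all 3 chains only in eWAT.

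In iWAT, 0 of 8 genes passed, and so did 0 of 24646 genes (0%) in limma. At an unadjusted p under 0.05, 3 of the 8 and 2055 of all genes (8.34%) were lower, and the methods' t-test with Benjamini-Hochberg adjustment called 1 gene of all. None of the 8 passed when KO mouse 2 was left out, where 0.921% of all genes did. C1qb read 8.11, 7.59, 9.18 and 8.84 in WT and 6.71, 7.62, 7.03 and 7.19 in KO mice, so that KO mouse 2 just exceeded WT mouse 2. Its difference was −1.29 (SE 0.338, adjusted p = 0.221), that of C1qa −0.91 (SE 0.370, adjusted p = 0.303) and that of C1qc −1.04 (SE 0.356, adjusted p = 0.256).

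Marco and Timd4 in iWAT were high where the B cell transcripts were high, in both genotypes. Marco read 7.0, 6.47, 4.09 and 3.30 in WT and 3.45, 7.39, 3.47 and 3.86 in KO mice, and Timd4 read 7.30, 6.61, 3.97 and 4.00 in WT and 2.88, 7.44, 3.78 and 3.99 in KO mice. The high values of both were those of WT mice 1 and 2 and KO mouse 2, the arrays with the highest B cell genes. Cd5l read 3.01, 3.32 and 4.45 in those 3 arrays and 2.23 to 3.09 in the others, with KO mouse 3 above WT mouse 1. The C1q genes did the opposite among WT mice and were higher in mice 3 and 4. The part of B cell-rich tissue in these values was not tested.

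The iWAT comparison was also run without the 3 arrays with the highest B cell genes, a choice made after seeing the data. The arrays left out were those of the 2 WT mice with the lowest mean of the C1q genes and of the KO mouse with the highest, so their removal widens the C1q differences by construction and nothing about genotype is read from it. The differences were then −1.74 for C1qa, −2.04 for C1qb and −1.86 for C1qc, and 78 genes passed in all. Without KO mouse 4 as well they were −1.67, −2.14 and −1.92, and 916 genes passed. Only 2 WT mice and 3 or 2 KO mice remained.

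**Figure D4:**
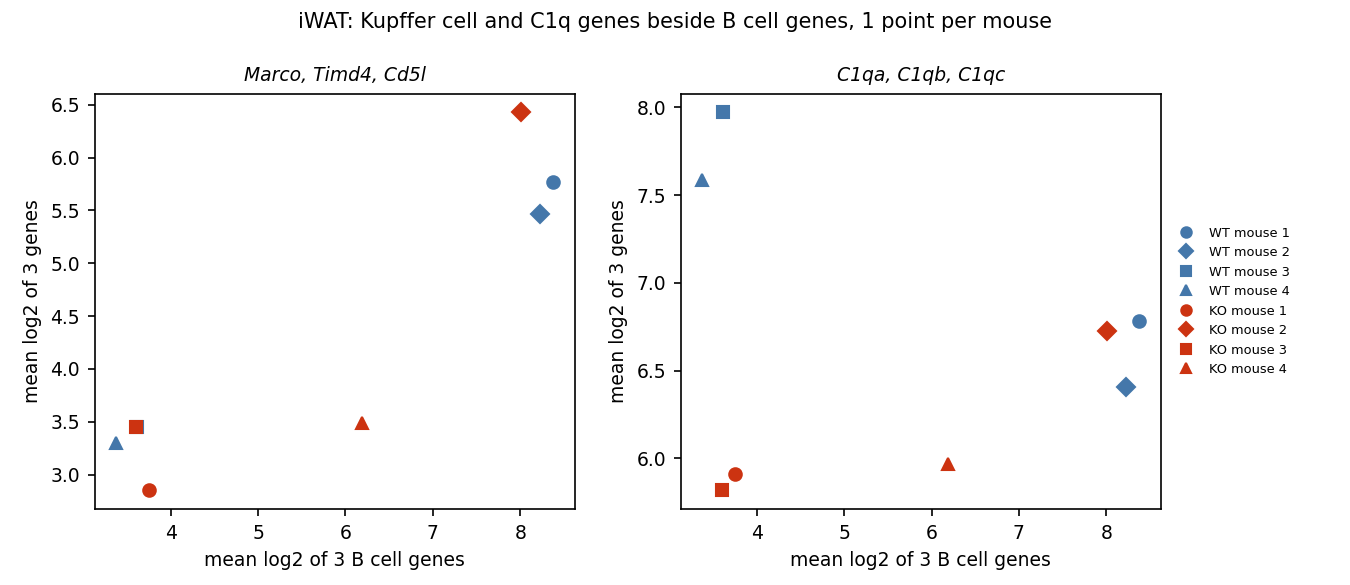
Mean log2 expression in iWAT of Marco, Timd4 and Cd5l (left) and of the C1q genes (right) against the mean of Cd79a, Cd79b and Ms4a1, with 1 point per mouse, blue for WT and red for KO. The 3 arrays with B cell means of 8.01 or more are also the 3 highest on the left, while on the right WT mice 3 and 4, with low B cell means, are the highest.

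In BAT, 0 of 8 genes passed, where 0.0284% of all genes were called, and 0 of 8 without KO mouse 2, where 0.0203% were. C1qb read 5.67, 5.59, 6.41 and 6.07 in WT and 5.26, 5.89, 5.31 and 5.13 in KO mice, with KO mouse 2 alone inside the WT range. The differences were −0.53 for C1qb (SE 0.206, adjusted p = 0.310), −0.27 for C1qa (SE 0.188, adjusted p = 0.613) and −0.40 for C1qc (SE 0.214, adjusted p = 0.482). The Kupffer cell genes read 1.39 to 3.07 in every BAT array, and their differences lay between −0.13 and 0.16.

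Whether liver and fat differed was tested on each mouse's liver value minus its value in the fat depot. Against eWAT, 3 of 8 genes passed, where 8.37% of all genes did. The difference of Clec4f was lower in liver than in eWAT by 1.12 (SE 0.280, 95% CI −1.73 to −0.50, adjusted p = 0.0338). Clec4f was dim in eWAT, and whether a fall could be seen there is unknown. The negative differences of C1qb and C1qc were smaller in liver than in eWAT, by 0.99 (SE 0.271, 95% CI 0.39 to 1.58, adjusted p = 0.0475) and 1.18 (SE 0.326, 95% CI 0.47 to 1.90, adjusted p = 0.0485). The exact permutation test gave p = 0.0571 for each of these 3 genes. Without KO mouse 2 these 3 passed together with C1qa, and leaving out any other mouse left 0. Nothing is read from the count without KO mouse 2, since the liver values of these genes chose that mouse.

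For Vsig4, which differed by −1.74 in liver and −1.67 in eWAT, the gap was −0.07 (95% CI −0.58 to 0.45, adjusted p = 0.919). Against iWAT, 0 of 8 passed, where 0.00406% of all genes did, and against BAT 0 of 8 passed, where 0.0893% did. Vsig4 had the largest gaps there, −1.71 against each depot (adjusted p = 0.189 in iWAT and 0.120 in BAT). It passed in both without KO mouse 2 (adjusted p = 0.0313 and 0.0217). That omission widens the liver difference of Vsig4 by construction, so nothing is read from it. Vsig4 was dim in those depots, its mean over all mice exceeding that of only 11.1% of genes in iWAT and 8.34% in BAT. Whether a fall could be seen at such levels is unknown.

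**Figure D5:**
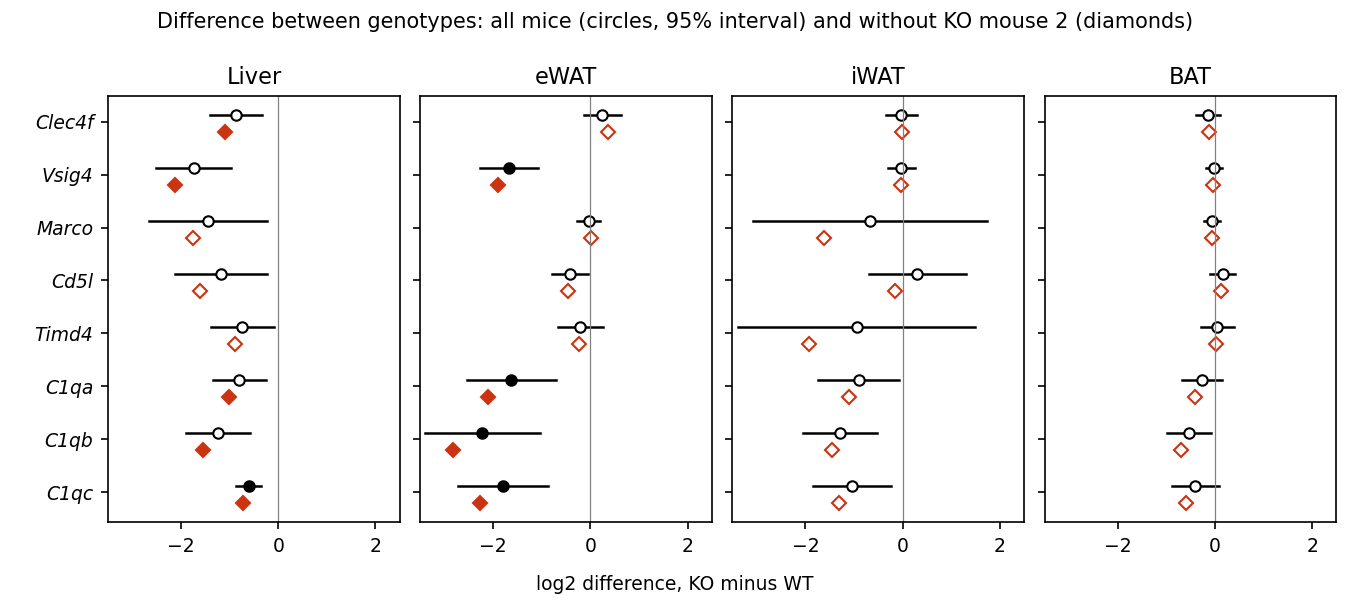
Log2 differences (KO minus WT) of the 8 genes in each tissue, with circles and 95% intervals for all mice and diamonds without KO mouse 2, filled where the adjusted p was under 0.05. Vsig4 lies left of 0 in liver and eWAT and near 0 in iWAT and BAT, where its values were dim, and the C1q genes lie left of 0 in all 4 tissues.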

How the data were processed

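Gene expression was measured in liver, eWAT, iWAT and BAT of 4 WT and 4 KO male mice (32 arrays), and groups were taken from the sample labels. The deposited tables hold 1 value per gene symbol, read as log2 expression from the range of the values. Array medians lay close together within a tissue. The 2 white fat tables carry abbreviations of visceral and inguinal, read here as eWAT and iWAT. Biotin-labelled targets were made from 100 ng of RNA per the labels. The software, probe summary, normalization and genome build are not given in the sources used here. For 840 genes the identifier is not a whole number, read here as an average over several probe sets. Entries with a blank or spreadsheet-altered name (1 or 2 per tissue) were left out, leaving 24646 genes. No 2 arrays of a tissue were identical, and the number of arrays limits the precision.

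Within each tissue, KO was tested against WT in limma 3.58.1 under R 4.3.3, with a threshold of 0.05 on p-values adjusted over all genes by the Benjamini-Hochberg method. Exact two-sided permutation tests over 4 mice against 4 can give no p below 0.0286. Liver and fat were compared on per-mouse differences, since the labels give each mouse 1 number across tissues. The 8 genes and the lists (154 genes, 149 matched directly, 4 by an older symbol and 1 not matched) were chosen with earlier results of these data known. Of each list, the genes past the threshold in liver and those with the 2 largest differences were named, with C1ra and C1s added after their values were seen. Some listed genes and a promoter motif are not reported here. Promoters are those of RefSeq for GRCm38.p6. Alternatives were quantile normalization, equal array medians, array weights, a robust prior with a trend, removal of dim genes, a replicate block, the methods' t-test, and omission of each array in turn. The procedure was tested on simulated data.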

Additional observations from a re-analysis of the deposited data

Results flagged for a closer look

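In liver, KO mouse 2 stood apart from the other KO mice for Marco, with a gap to its nearest neighbour of 0.912 of the whole range of the group. The same mouse stood apart for Marco among iWAT KO arrays (0.896 of the range). WT mouse 3 stood apart for C1qb in eWAT (0.850) and for C1qa in BAT (0.863). These were 4 of 64 groups of 4 mice examined, and chance alone marks about 1 group in 20.

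The genotype difference of Clec4f was lower in liver than in eWAT by a log2 difference of −1.115, while those of C1qb (0.989) and C1qc (1.184) were less negative in liver than in eWAT. The Clec4f values in eWAT were dim, between 2.49 and 3.44, with no detection call to set beside them.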

How the results depend on the processing

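In liver every alternative kept the direction of all 8 genes, but the calls depended on it. The 1 of 8 genes called became 2 with array weights, with dim genes left out and with equal array medians (Vsig4 joined C1qc), 0 with quantile normalization, and 0 by the methods' t-test after adjustment and 5 before it. Leaving out single arrays gave 0 to 5 of 8 and 41 to 300 genes in all, the highest values without KO mouse 2. Of all genes in liver, 252 passed with dim genes left out, and 2 and 2901 by the t-test with and without adjustment. In eWAT the t-test gave 38 and 6798 genes and, with adjustment, 0 of 8, and single arrays left out gave 1448 to 5429 genes and 1 to 4 of 8. Leaving out eWAT WT mouse 2, 3 or 4 or KO mouse 1 or 4 left Vsig4 alone, and leaving out WT mouse 1 left 2 of 8. In iWAT the t-test gave 1 and 3167 genes and 1 of 8 without adjustment, the 3-array and 4-array omissions added after seeing the data gave 78 and 916 genes and, by the choice of arrays, 3 of 8 each, and single omissions gave 0 to 227, the highest without KO mouse 2. In BAT quantile normalization, equal medians and the adjusted t-test gave 0 genes, the unadjusted t-test 2803, and single omissions 0 to 80, the highest without WT mouse 1. Between liver and eWAT, quantile normalization left 1 of 8 and single mice left out gave 0 to 4, and between liver and iWAT or BAT 0 to 1.

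Small differences changed sign when an array was left out. Over the omissions, Marco in eWAT ran from −0.096 to 0.038 (above 0 without WT mouse 4 and without KO mouse 2), Clec4f in iWAT from −0.10 to 0.083 (above 0 without WT mouse 1, WT mouse 3 or KO mouse 3), Vsig4 in iWAT from −0.092 to 0.079 (above 0 without WT mouse 4, and 0.038 with array weights), Cd5l in iWAT from −0.15 (without KO mouse 2) to 0.59, Vsig4 in BAT from −0.052 to 0.0064 (above 0 without WT mouse 2) and Timd4 in BAT from −0.077 to 0.14 (below 0 without WT mouse 4 or KO mouse 1). Of the list counts in liver, 41 moved by over 1.5 times and 141 did not.

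With the replicate block, 0 of 8 genes passed in liver (C1qc at an adjusted p of 0.101), and 1 gene of all passed in iWAT and 0 in BAT. Whether the numbers pair WT with KO mice is not settled. The labels do not say so, and in no tissue did the deviations of all 4 same-numbered pairs correlate above 0.1 (−0.06 to 0.11 in liver, −0.000307 to 0.16 in eWAT, −0.39 to 0.67 in iWAT and 0.01 to 0.22 in BAT). In liver and BAT 4 of 8 arrays, and in eWAT and iWAT 5 of 8, were nearest to their own number. With only 4 candidates per array, some are nearest to their own number by chance. In iWAT, WT mouse 2 and KO mouse 2 were also both among the arrays with the highest B cell genes, so these counts do not settle the pairing. The causes of these shifts were not tested.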
